A study of Mus musculus with 9 samples.

Results

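Whole mouse embryos homozygous for a targeted allele of the receptor gene Notch1 (Notch1tm1Con/tm1Con, called Notch1 null by the labels) were compared with wild-type embryos (+/+) at 9.5 days post coitum. The comparison takes the 2 arrays titled Notch1 null and the 2 titled wild type, 4 of the 9 Affymetrix arrays of the series, each hybridised with labelled total RNA of whole embryos. A Notch1tm1Con/+ heterozygous array (1), Dll3neo/+ heterozygous arrays (2) and Dll3neo/neo null arrays (2) of the same age complete the series. They serve here as a background. The Dll3 arrays also enter the estimate of spread, to which the single Notch1 heterozygous array adds nothing. The C57BL/6J strain is named for Notch1 null 1 only, and the labels do not say whether wild-type embryos were littermates, whether an array holds 1 embryo or a pool or whether the replicates of a group are biological. The p-values therefore reflect array-to-array spread alone, and that spread may be technical. In whole embryos, fewer cells of a type and less RNA per cell cannot be told apart.

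Notch receptors are cut after binding a ligand on a neighbouring cell, and the freed intracellular part enters the nucleus, where it joins the DNA-binding protein RBPJ and switches on genes such as those of the Hes and Hey families. In the mouse embryo this signal keeps neural progenitors from differentiating, sets the boundaries of somites, and directs the choice of arterial identity and the remodelling of the first vessels of the embryo and yolk sac. Embryos without Notch1 are known to die in midgestation.

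Values are ratios: each probe set (a group of short probes read as 1 measurement) was divided by a number of its own, so a ratio of 1 is near the middle of the 9 arrays, and no value tells how abundant a transcript was or checks the labelled tissue by the level of its markers. Differences are Notch1 null minus wild type on the log2 scale with the standard error (SE) of the fit, and "higher" or "lower" means a limma adjusted p under 0.05. The technical controls did not lie level over the arrays. The dap control, an RNA added before labelling, had mean ratios of 5.5 and 2.92 in Notch1 null, 6.98 and 9.54 in wild type, 1 in the Notch1 heterozygous array and 0.452 to 0.483 in the Dll3 arrays. Eif2s3y, a Y-linked gene, had log2 ratios of -3.24 and 0.88 in Notch1 null 1 and 2 and of 0.04 and 0.10 in wild type 1 and 2, so Notch1 null 1 had a female and the other 3 a male pattern. The part of both in the results was not tested beyond 2 fits that carry them as a covariate. With the dap level in the fit 0 probe sets passed limma (2453 at an unadjusted p under 0.05), and the median SE was 1.77 times larger. Of the 2139 differences called without it, 2139 kept their sign. They had been picked as large against the spread within groups, from which the dap term is estimated. Kept signs were therefore likely beforehand and do not tell what part the dap level had.

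Notch1 null embryos had 783 probe sets higher (3.46% of 22626) and 1356 lower (5.99%), 9.45% in all. Higher probe sets had a median difference of 0.65 and lower ones of -0.59, while the median over all probe sets was -0.03. Called differences of 1 or more on the log2 scale numbered 120 higher and 90 lower. The median gap between replicate arrays was 0.12 in each genotype over all probe sets, and 0.13 and 0.12 over the called ones. Arrays of both groups lay apart, with no test, for 21.2% of probe sets with Notch1 null above and for 34.0% with Notch1 null below. Among those called higher, both Notch1 null arrays lay above all 7 others in 554 and both wild-type arrays lay below all 7 others in 281. Among those called lower, Notch1 null lay below all 7 others in 897 and wild type above all 7 others in 523. A part of the calls therefore rests on wild-type arrays that differ from the Dll3 and heterozygous arrays too. With probe sets averaged per gene, and called or not, Notch1 null lay above all 7 others in 7.32% of 12393 genes and below in 13.5%. Wild type lay below all 7 others in 4.99% and above in 7.1%.

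Leaving out an array of either group lowered these counts. Each such fit sets 1 array against 2, which tends to raise the SE whichever array is dropped. A call that ended without an array, here and below, does not by itself show that it depended on that array in particular. Without Notch1 null 1 there were 416 higher and 463 lower probe sets, without Notch1 null 2 there were 124 and 182, without wild type 1 there were 285 and 325, and without wild type 2 there were 162 and 236. Calls that stood in each of these 4 fits numbered 105 higher and 110 lower, 10.1% of the 2139.

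**Figure D1:**
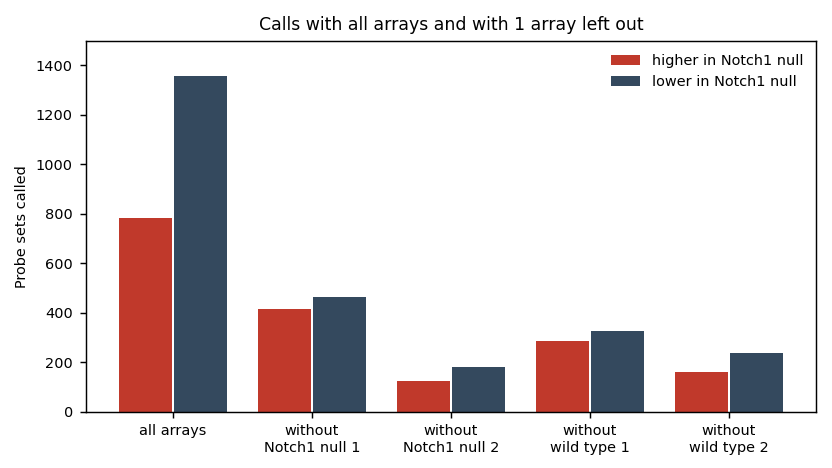
Number of probe sets called higher (red bars) or lower (dark bars) in Notch1 null against wild type, with all 9 arrays and with 1 array of either group left out. Counts fall in each of the 4 fits, to 124 higher and 182 lower without Notch1 null 2.

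Where a gene had several probe sets, they served as a check within the same RNA. Of 4956 genes with 2 or more, 107 (2.16%) had at least 2 higher and 169 (3.41%) at least 2 lower, 5.57% in all, with arrays apart and none passing the other way. A further 665 had exactly 1 probe set that passed, and 7 had probe sets passing in opposite directions. Over the 3057 genes with exactly 2, the differences of the first and second probe set had a correlation of 0.56 across genes, which are not independent replicates, and a median gap of 0.17. Of the 498 with either passing, 121 (24.3%) passed with both in the same direction and 435 (87.3%) had the same sign. The share with the same sign over all 3057 was not worked out. The 276 genes with 2 or more concordant probe sets became 91 without Notch1 null 1, 26 without Notch1 null 2, 50 without wild type 1 and 30 without wild type 2.

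**Figure D2:**
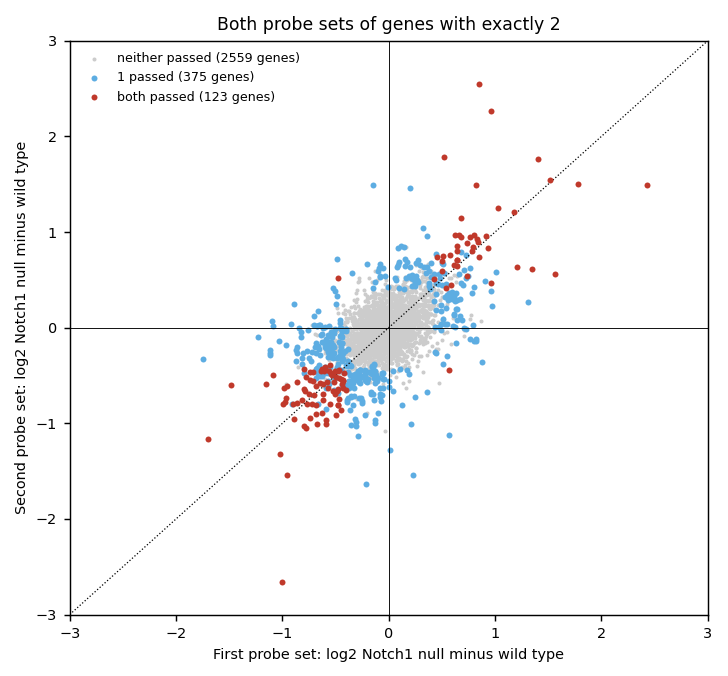
Difference between Notch1 null and wild type (log2) at the first (horizontal axis) and second (vertical axis) probe set of the 3057 genes with exactly 2; the dotted line marks equal values. Points where both passed (123 genes, red) lie mostly along the diagonal in the upper right and lower left, and points with 1 passed (375 genes, blue) spread wider.

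Notch1 itself was read by a pair of probe sets, neither of which lay below wild type. At the first, the ratios were 1.47 and 1.69 in Notch1 null and 0.916 and 1.01 in wild type (log2 0.71 ± 0.13 SE, adjusted p = 0.0138). At the second they were 1.31 and 1.74 against 0.974 and 1.02 (log2 0.60 ± 0.23, adjusted p = 0.142). The groups did not overlap at either, the heterozygous array (1.08 and 1.06) lay between them, and where the probes lie relative to the targeted sequence was not worked out, so these values check no label. The call at the first ended without Notch1 null 2 (adjusted p = 0.118), wild type 1 (0.0915) and wild type 2 (0.0662).

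Averaged over probe sets, 466 of 12393 genes (3.76%) were higher and 1035 (8.35%) lower in Notch1 null, 12.1% in all, and the lists below are read against these shares. List counts and left-out counts are of averaged genes, with p adjusted over 12393 genes. A probe set alone, adjusted over 22626, was lost more often: of 52 list genes outside the hypoxia and neural lists that stood averaged in all 4 left-out fits, 25 had a probe set that stood in all 4 by itself and 27 had none. The median over all genes was -0.03, and 7122 of 12393 genes lay below 0. Of 32 measured genes of the Notch pathway, 3 (9.38%) were higher and 0 lower, with a median of 0.01. Besides Notch1 these were Numb, an inhibitor of Notch (log2 0.38 ± 0.10), and Spen, a corepressor partner of RBPJ (log2 0.44 ± 0.12). Numb passed at 1 of its 2 probe sets (0.25 and 0.51). Spen passed only as an averaged gene, and its heterozygous array at 2.31 exceeded both nulls at 1.26 and 1.42. These 3 became 1, 0, 1 and 0 without Notch1 null 1, Notch1 null 2, wild type 1 and wild type 2.

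The other receptors did not pass at any probe set: differences were -0.10 and 0.36 for Notch2, 0.13 and 0.45 for Notch3, and -0.42 and 0.03 for Notch4. Among ligands, the arrays overlapped for Dll1 (log2 -0.02 ± 0.12), for Dll3 (-0.01 ± 0.12) and for Jag2 (-0.09 ± 0.15 and 0.07 ± 0.17). Jag1, a ligand used in vessels and inner ear, had ratios of 0.797 and 0.774 against 1.01 and 1.05 at its first probe set (log2 -0.39 ± 0.14, adjusted p = 0.132), apart but not passed. The fringe genes, whose products add sugars to the receptor, had differences of -0.33 and -0.06 (Lfng), -0.47 (Mfng) and -0.13 and -0.36 (Rfng), none passed. Rbpj itself had differences of 0.32 and 0.34 (adjusted p = 0.314 and 0.0857). The Notch gene Adam10 was higher at 1 of its 3 probe sets (differences from 0.25 to 0.47) but did not pass averaged.

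Of 22 measured Notch target genes 7 (31.8%) were lower and 0 higher, with a median of -0.16. Below 0 were 13 of 22, a share like that over all genes (7122 of 12393). The 7 lower targets were Hes5, Id4, Id1, Nrarp, Snai1, Ccnd1 and Id3. Hes5 and Id4 also belong to the neural progenitor list, of which 13 of 48 genes (27.1%) were lower, and 39.1% of the neurogenesis list was lower. The part of these neural lists in the target values was not tested. Of the 19 targets outside the hypoxia and neural lists 5 were lower, with a median of -0.05. The targets include genes that other signals also control. Without Notch1 null 1, Notch1 null 2, wild type 1 and wild type 2 in turn, 6, 5, 4 and 5 were lower, and Hes5, Id4, Id1 and Nrarp stood in each as averaged genes. The Id1 probe set alone ended without Notch1 null 1 (adjusted p = 0.0583), Notch1 null 2 (0.074) and wild type 1 (0.0678).

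Hes5, a repressor that holds neural progenitors back from differentiation, had ratios of 0.493 and 0.428 in Notch1 null and 1.52 and 1.47 in wild type at its first probe set (log2 -1.70 ± 0.12). Its second probe set read 0.553 and 0.485 against 1.09 and 1.24 (log2 -1.17 ± 0.12). Both nulls lay below every other array at both, with the heterozygous array (0.772 and 0.66) next. Hes7, a clock gene of the presomitic mesoderm, read 0.996 and 0.987 against 0.823 and 1 (log2 0.13 ± 0.12, adjusted p = 0.59), with overlapping arrays.

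The promoters of these 2 Hes genes are shown because their readouts differ while both hold the core letters bound by RBPJ. The sequences are the 250 bases before the RefSeq transcription start (assembly GRCm38.p6), 5′ to 3′ on the gene's strand, with matches to GTGGGAA or its reverse complement TTCCCAC in capitals.
Hes5 (chr4:154960673-154960922, plus strand): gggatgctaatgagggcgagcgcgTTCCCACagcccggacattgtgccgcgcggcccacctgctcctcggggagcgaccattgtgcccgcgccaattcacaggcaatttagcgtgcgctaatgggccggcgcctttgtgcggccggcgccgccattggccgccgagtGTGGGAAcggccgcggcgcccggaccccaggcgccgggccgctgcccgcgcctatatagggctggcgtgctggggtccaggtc
Hes7 (chr11:69120203-69120452, plus strand): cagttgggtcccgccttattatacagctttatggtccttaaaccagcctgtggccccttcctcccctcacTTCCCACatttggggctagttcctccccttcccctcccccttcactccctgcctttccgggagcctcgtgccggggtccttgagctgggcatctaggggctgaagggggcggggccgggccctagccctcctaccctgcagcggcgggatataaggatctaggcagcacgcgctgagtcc
Hes5 holds 2 matches, beginning at positions -226 and -83 from the start, and Hes7 holds 1, at -180. On either strand 7.25% of the 27025 promoters in the table hold these letters in the 300 bases from 250 before to 50 after the start. Nrarp, Id3, Id4 and Snai1, all lower, hold no match in the same 250 bases, and Hey2 (log2 -0.05 ± 0.13), with 1 match at -207 in these bases and another across the start, did not pass. A match is a description of letters and shows no binding. Only 14 of the 22 targets had a promoter in the table, so no share over the targets is given.

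Nrarp encodes a small feedback inhibitor that binds the Notch complex. Its probe sets read 0.569 and 0.825 against 1.65 and 1.41 (log2 -1.15 ± 0.21) and 0.708 and 0.694 against 1.18 and 0.945 (log2 -0.59 ± 0.13). The averaged Nrarp call stood in each left-out fit, though neither probe set passed alone without wild type 1 (adjusted p = 0.0853 and 0.11). All 3 probe sets of Id4, an inhibitor of basic helix-loop-helix factors, were lower, by -1.35, -0.86 and -1.17. At the Id4 probe set that stood in each left-out fit the ratios were 0.943 and 0.757 against 2.13 and 1.71, and the heterozygous array (0.736) lay below both nulls. For Id1 it lay beside them (0.676, with nulls at 0.658 and 0.669 and wild types at 1.14 and 0.964). Ccnd1, cyclin D1, was lower at 2 of its 3 probe sets (log2 -0.68 ± 0.14 and -0.55 ± 0.11), and both calls ended without Notch1 null 2 (0.148 and 0.113), wild type 1 (0.0846 and 0.0672) and wild type 2 (0.121 and 0.0919). The 3 Heyl probe sets had differences of -0.60, 0.08 and -0.29, of which the first passed and ended without Notch1 null 2 (adjusted p = 0.0873), wild type 1 (0.0672) and wild type 2 (0.0555). Hes1 (log2 -0.18 ± 0.13), Hey1 (-0.37 ± 0.16) and Mesp2 (-0.28 ± 0.14) did not pass.

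Genes beyond the Notch, hypoxia and neural lists with concordant probe sets were led, among the higher ones, by Plekha2, which encodes an adaptor that binds membrane phosphoinositides. It read 2.41 and 2.81 against 1.02 and 0.944 (log2 1.41 ± 0.13), and 2.41 and 2.70 against 0.761 and 0.746 (log2 1.76 ± 0.12). Both nulls lay above all 7 others at both, and both calls stood in each left-out fit. Pde4b, a phosphodiesterase that breaks down cyclic AMP, read 2.21 and 3.58 against 0.954 and 1.04 (log2 1.49 ± 0.20) and 1.49 and 1.75 against 0.828 and 1.01 (log2 0.82 ± 0.17). The 2nd of these ended in all 4 left-out fits (adjusted p 0.063 to 0.162).

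All 4 probe sets of Clcn3, a chloride and proton exchanger of endosomes, were higher, with differences from 0.67 to 1.22. Lpp, a LIM protein of focal adhesions, was likewise higher at 4 of 4 (0.50 to 1.29), and Ogt, the enzyme that attaches O-GlcNAc to nuclear and cytosolic proteins, at 4 of 5 (0.90 to 1.15). Dlg1, a scaffold of cell polarity, read 1.12 and 1.36 against 0.644 and 0.615 at 1 probe set (log2 0.97 ± 0.12) and 1.31 and 1.46 against 0.857 and 0.736 at the other (log2 0.80 ± 0.11). For Clcn3, Lpp and Dlg1 at least 1 probe set stood in each left-out fit, while each Ogt call ended without Notch1 null 2 (adjusted p 0.0513 to 0.0921). The predicted gene Gm6958 was higher at both probe sets (1.35 and 0.62), but the heterozygous array at 2.54 and 1.97 exceeded both nulls, and both calls ended without Notch1 null 2 (0.141 and 0.187).

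**Figure D3:**
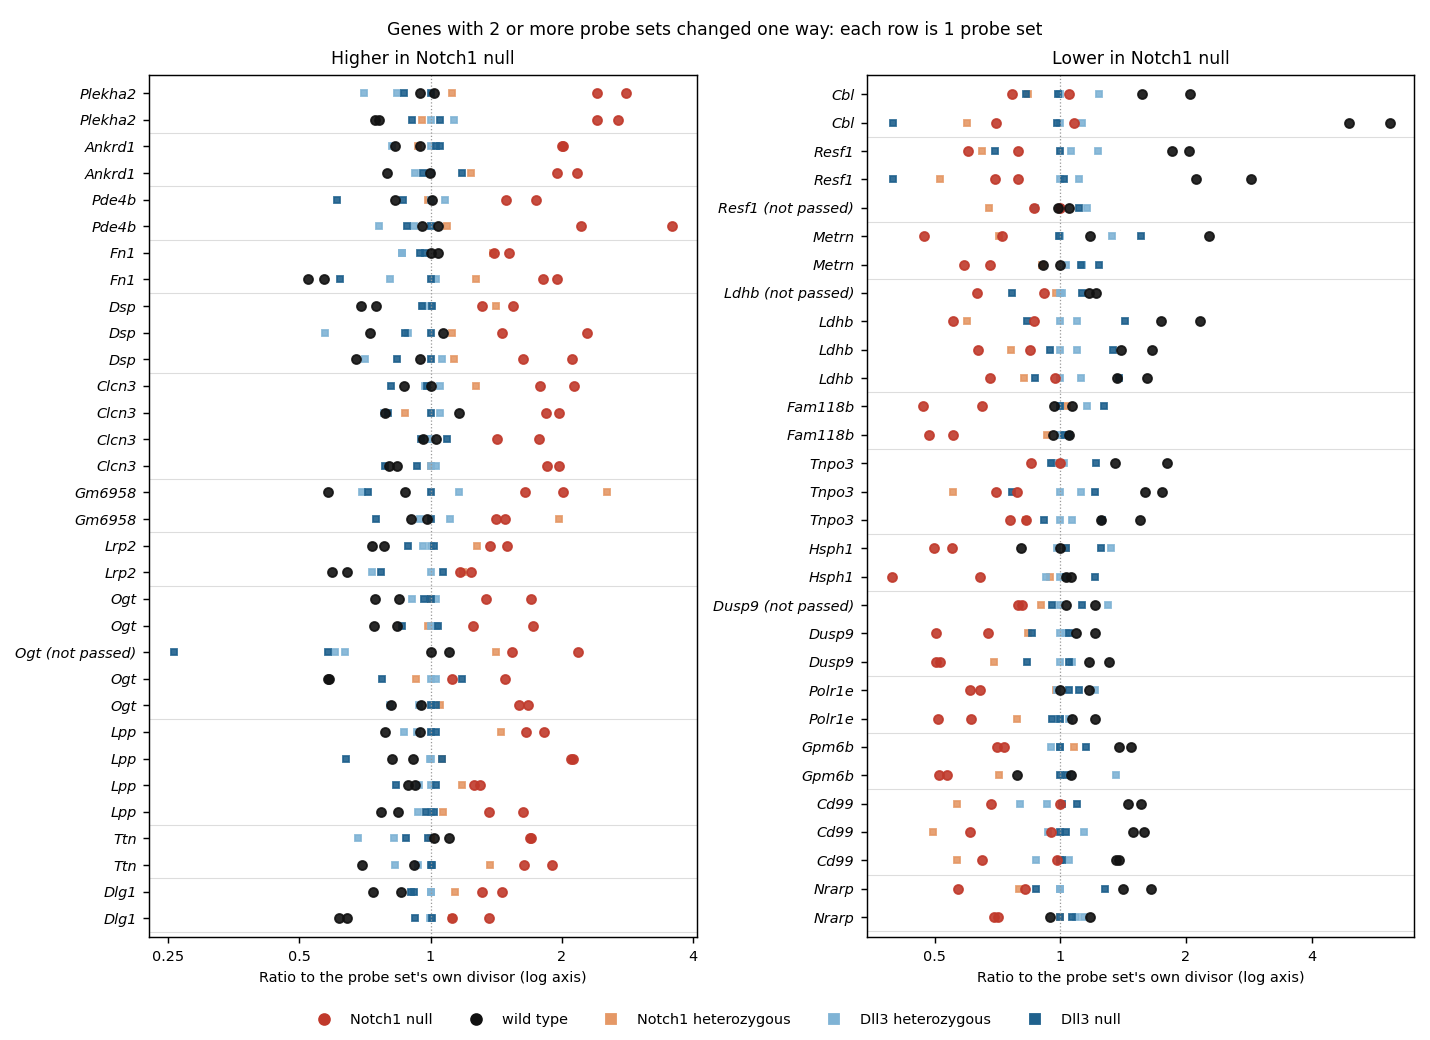
Ratio of each probe set on the 9 arrays (log axis) for the 12 highest and 12 lowest genes with concordant probe sets, 1 row per probe set. Notch1 null (red circles) and wild type (black circles) do not overlap in any called row; the squares are the heterozygous and Dll3 arrays, which lie with wild type in Plekha2 and with Notch1 null in Cbl.

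Among the lower genes of this kind, Cbl, a ubiquitin ligase that turns off receptor tyrosine kinases, read 1.08 and 0.702 against 4.93 and 6.15 at 1 probe set (log2 -2.66 ± 0.36) and 1.05 and 0.765 against 1.57 and 2.05 at the other (log2 -1.0 ± 0.19). Here wild type stood apart: the heterozygous array (0.598) and the Dll3 arrays (0.397 to 1.13) lay with the nulls at the first. Resf1, a silencer of retroelements, had the same layout at 2 of 3 probe sets (wild type 1.85 to 2.86, all others at most 1.23), with -0.13 at the third, which did not pass. The first Resf1 call stood in each left-out fit. Both Cbl calls ended without Notch1 null 2 (adjusted p = 0.0555 and 0.12).

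For other genes the nulls stood apart. Dusp9, a phosphatase of ERK kinases, read 0.514 and 0.505 against 1.17 and 1.31 (log2 -1.28 ± 0.13), with the remaining arrays between 0.694 and 1.07. Fam118b read 0.554 and 0.484 against 0.96 and 1.05 (log2 -0.95 ± 0.11), and Polr1e, a subunit of RNA polymerase I, read 0.61 and 0.509 against 1.21 and 1.07 (log2 -1.03 ± 0.12). These 3 probe sets stood in each left-out fit. Dusp9 passed at 2 of 3 probe sets, with differences from -1.28 to -0.48. The other probe set of Fam118b differed by -0.89 and that of Polr1e by -0.79, and both passed. The other passing probe set of each of these genes did not stand in every left-out fit.

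Metrn, a secreted factor of glia and neurites, was lower at both probe sets (-1.48 and -0.59), as was Gpm6b, a membrane protein of neural cells (-0.99 and -0.80). Ldhb, a lactate dehydrogenase subunit, was lower at 3 of 4 (-0.87 to -1.48), Cd99, a surface glycoprotein, at 3 of 3 (-0.78 to -1.02), and Tnpo3, an import receptor for splicing factors, at 3 of 3 (-0.76 to -1.17). The first Gpm6b call stood in each left-out fit, both Metrn calls ended without Notch1 null 2 (adjusted p = 0.196 and 0.135) and wild type 1 (0.147 and 0.105), and each call of Ldhb, Cd99 and Tnpo3 ended in 3 or 4 of these fits.

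Among genes with 1 probe set, Kcne3, a potassium channel subunit, read 2.70 and 3.75 against 0.844 and 0.79 (3.9-fold, log2 1.96 ± 0.17), and A2m, a protease inhibitor, 2.53 and 2.47 against 0.983 and 1.08 (2.42-fold). Ago2, of RNA silencing, read 0.713 and 0.712 against 3.31 and 3.15 (4.53-fold lower), again with wild type apart from the heterozygous (0.574) and Dll3 arrays (0.555 to 1.11). Fez1, an axonal transport adaptor, read 0.466 and 0.522 against 1.31 and 1.18 (2.51-fold lower), below every other array. These 4 calls stood in each left-out fit. The transcripts Gdap10 (3.11-fold) and 2610528A11Rik (2.88-fold) were higher, and both calls ended without Notch1 null 2 (adjusted p = 0.135 and 0.0628).

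Vessel genes had more members higher than the share over all genes: 9 of 52 (17.3%), with 1 lower and a median of 0.10. The lower one was Gja4, which encodes connexin 37, a gap junction protein of arterial endothelium. It read 0.359 and 0.475 against 1.02 and 1.36 (2.85-fold lower, log2 -1.51 ± 0.16), below all 7 others, with the heterozygous array at 0.777. Sox17, a factor of arterial endothelium and of endoderm, was higher (1.59 and 1.89 against 0.952 and 1.02), as was Kdr, a VEGF receptor (1.57 and 1.82 against 0.834 and 1.03, with the heterozygous array at 1.38). Nrp2, a coreceptor of veins and lymphatics, read 1.31 and 1.40 against 0.873 and 0.859. The 9 became 7, 1, 4 and 4 without Notch1 null 1, Notch1 null 2, wild type 1 and wild type 2, and the 1 left without Notch1 null 2 was Sox17. The lower call of Gja4 stood in each of the 4 fits.

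Endocardium lines the heart and forms the cushions from which valves arise. Of 34 such genes 7 (20.6%) were higher and 3 (8.82%) lower, with a median of 0.12. Has2, which makes the hyaluronan of cardiac jelly, read 1.24 and 1.18 against 0.732 and 0.666 averaged over probe sets (log2 0.79 ± 0.13). It passed at 1 of 2 probe sets (1.01 and 0.58). Adamts1, a matrix protease, read 1.38 and 1.5 against 0.978 and 0.966, and Bmp2 1.31 and 1.67 against 0.836 and 0.938. Snai1, a driver of the change from epithelium to mesenchyme, was lower (0.879 and 0.973 against 1.48 and 1.32), a call that ended without wild type 1 (adjusted p = 0.0539) as an averaged gene and in all 4 left-out fits as a probe set (0.0529 to 0.0853). The 7 became 5, 1, 3 and 3 in the left-out fits, in the same order of arrays, with Has2 in each. Of 52 cardiac muscle genes 6 (11.5%) were higher and 2 lower.

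Ankrd1, a stress-responsive nuclear and sarcomeric protein, read 2.00 and 2.01 against 0.945 and 0.83 at 1 probe set and 1.95 and 2.17 against 0.997 and 0.794 at the other (log2 1.18 ± 0.12 and 1.21 ± 0.15). The titin gene Ttn was higher at both probe sets (0.68 and 1.14). The beta-myosin gene Myh7 read 1.78 and 2.10 against 0.983 and 0.842, while Tbx2, a repressor of chamber genes, was lower (1.05 and 0.821 against 1.55 and 1.43), a call that ended without Notch1 null 2 (adjusted p = 0.0569) and wild type 1 (0.0567). Of the 6 higher cardiac genes 3, 3, 5 and 3 were left in the left-out fits, and Ankrd1, Ttn and Myh7 stood in each, Myh7 only as an averaged gene.

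Matrix genes followed a like count, 11 of 67 (16.4%) higher and 2 lower, with a median of 0.12. Fibronectin, Fn1, on which early vessels and somites depend, read 1.95 and 1.81 against 0.568 and 0.522 at 1 probe set (log2 1.79 ± 0.21) and 1.40 and 1.51 against 1.04 and 1 at the other (log2 0.51 ± 0.10). Its heterozygous array was also raised (1.27 and 1.39). The basement membrane genes Nid2 (1.43 and 1.71 against 0.884 and 0.873) and Lamb1 (1.43 and 1.66 against 0.792 and 0.952) were higher. Lamb1 passed at 2 of its 3 probe sets. Vcan, a proteoglycan, was higher too (log2 0.55 ± 0.10). The 11 became 17 without Notch1 null 1 but 3, 6 and 3 without Notch1 null 2, wild type 1 and wild type 2. Fn1, Nid2 and Lamb1 stood in each.

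The cytoskeleton and adhesion list had 11 of 80 genes (13.8%) higher and 5 (6.25%) lower, with junction and keratin genes foremost by p. The desmosome gene Dsp was higher at 3 of 3 probe sets (0.98 to 1.21). Its partner Pkp2 read 1.30 and 1.17 against 0.657 and 0.74, and passed at 2 of its 4 probe sets. The epithelial keratin Krt19 read 1.84 and 2.32 against 0.863 and 1.06. Krt8, another keratin of simple epithelia, was higher by 0.60 ± 0.11, and its call ended without Notch1 null 2 (adjusted p = 0.0642) and wild type 1 (0.0548). The 11 became 7, 3, 5 and 4 in the left-out fits, in the order given above, and Krt19 and Pkp2 stood in each.

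**Figure D4:**
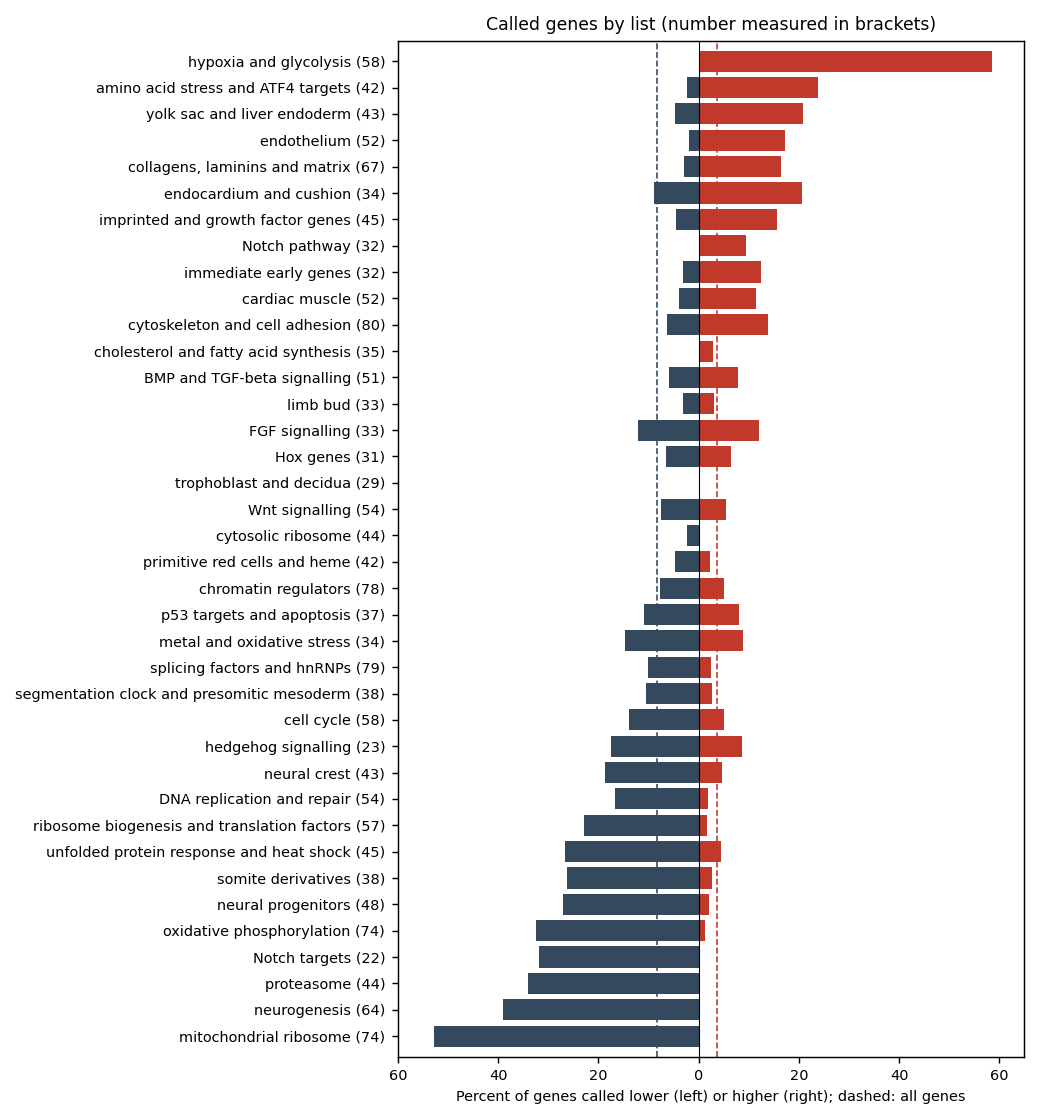
Percent of measured genes of each list called higher (red, to the right) or lower (dark, to the left) in Notch1 null; dashed lines mark the shares over all 12393 genes, 3.76% higher and 8.35% lower. The mitochondrial ribosome has 52.7% lower, and hypoxia and glycolysis 58.6% higher.

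Somite genes were lower in part: 10 of 38 (26.3%), with 1 higher and a median of -0.20. Of the 35 outside the hypoxia and neural lists 8 were lower, with a median of -0.18. Uncx, expressed in the posterior part of each somite, read 0.621 and 0.507 against 1.38 and 1.32 (log2 -1.27 ± 0.11). Aldh1a2, which makes retinoic acid in paraxial mesoderm, read 0.651 and 0.759 against 1.58 and 1.28, and Pax1, of the sclerotome, 0.572 and 0.696 against 1.28 and 1.09. For these 3 genes the heterozygous array (1.22, 1.5 and 1.22) lay near wild type, and the calls stood in each left-out fit. Tcf15, of the epithelial somite, was lower by -0.69 ± 0.12. The 10 became 7, 7, 5 and 6. By contrast 4 of 38 genes (10.5%) of the segmentation clock and presomitic mesoderm were lower and 1 higher, near the share over all genes. These were Aldh1a2, Nrarp, Snai1 and Fgf18, and the higher one was Cyp26a1, which degrades retinoic acid (log2 0.56 ± 0.14). The Cyp26a1 call ended without Notch1 null 1 (adjusted p = 0.1), Notch1 null 2 (0.153) and wild type 1 (0.159).

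In the neural crest list 8 of 43 genes (18.6%) were lower and 2 higher, though the median was 0.04. Outside the hypoxia and neural lists 7 of 42 were lower. Barx1, a factor of pharyngeal arch mesenchyme, read 0.725 and 0.896 against 1.91 and 1.54 (log2 -1.09 ± 0.15), and Crabp2, a retinoic acid carrier, 0.774 and 0.752 against 1.15 and 1.11. Kit, a receptor of melanoblasts and germ cells, and Tfap2a, a crest specifier, were higher (log2 0.80 ± 0.13 and 0.58 ± 0.10), and both calls ended without Notch1 null 2 (adjusted p = 0.0507 and 0.0596). The 8 became 5, 3, 4 and 3, with Barx1 and, only as an averaged gene, Crabp2 in each. Among 31 Hox genes, which set position along the body axis, Hoxa5 (1.64 and 1.65 against 0.989 and 1.12) and Hoxa9 were higher, and Hoxb5 (0.928 and 0.98 against 1.36 and 1.51) and Hoxa2 were lower. The median of the Hox list was 0.01, and Hoxa9 and Hoxa2 ended without Notch1 null 2 (0.0514 and 0.0927). Hoxa5 and Hoxb5 stood in each left-out fit as averaged genes, but as probe sets both ended without Notch1 null 1 (0.0508 and 0.0647) and Notch1 null 2 (0.0729 and 0.0669). Of 33 limb bud genes 1 was higher, Gli3, and 1 lower, Lhx2, and both calls ended without Notch1 null 2 (0.13 and 0.0675).

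The mitochondrial ribosome, which translates the few proteins encoded in mitochondrial DNA, was lower at 39 of 74 genes (52.7%) against 8.35% of all genes, with 0 higher, a median of -0.39 and 71 of 74 below 0. Both subunits took part, with 15 of 27 small-subunit (Mrps) and 24 of 46 large-subunit (Mrpl) genes lower. Mrps18a read 0.642 and 0.697 against 1.21 and 1.28, Mrpl20 0.583 and 0.521 against 1 and 0.994, and Mrpl4 0.576 and 0.675 against 1.10 and 1.25. Both nulls lay below all 7 others in 43 of the 74 genes, against 13.5% of all genes. The mean log2 ratio of the list was -0.30 and -0.33 in Notch1 null, -0.17 in the heterozygous array, 0.06 and 0.09 in wild type, and -0.02 to 0.07 in the Dll3 arrays. The 39 became 22, 11, 22 and 16 without Notch1 null 1, Notch1 null 2, wild type 1 and wild type 2, and 21 after quantile normalization, with 0 higher in each. Mrpl4, Mrpl16, Mrpl20, Mrpl22, Mrps6, Mrps12, Mrps15, Mrps18a and Mrps24 stood in all 4 left-out fits as averaged genes, and a probe set stood by itself for Mrps15, Mrps18a and Mrps24.

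Oxidative phosphorylation, the respiratory chain and ATP synthase, had 24 of 74 genes (32.4%) lower and 1 higher, with a median of -0.24. They included 13 of 33 genes of complex I, 6 of 15 of ATP synthase and 1 of 12 of complex IV. Atp5g1, a subunit of the ATP synthase ring, read 0.67 and 0.646 against 1 and 1.08, and Ndufb10, of complex I, 0.899 and 0.888 against 1.37 and 1.47. In this list the heterozygous array was lowest of all 9, with a mean of -0.29 beside -0.17 and -0.16 in Notch1 null and 0.08 and 0.09 in wild type. The 24 became 7, 7, 10 and 4 in the left-out fits and 10 after quantile normalization.

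**Figure D5:**
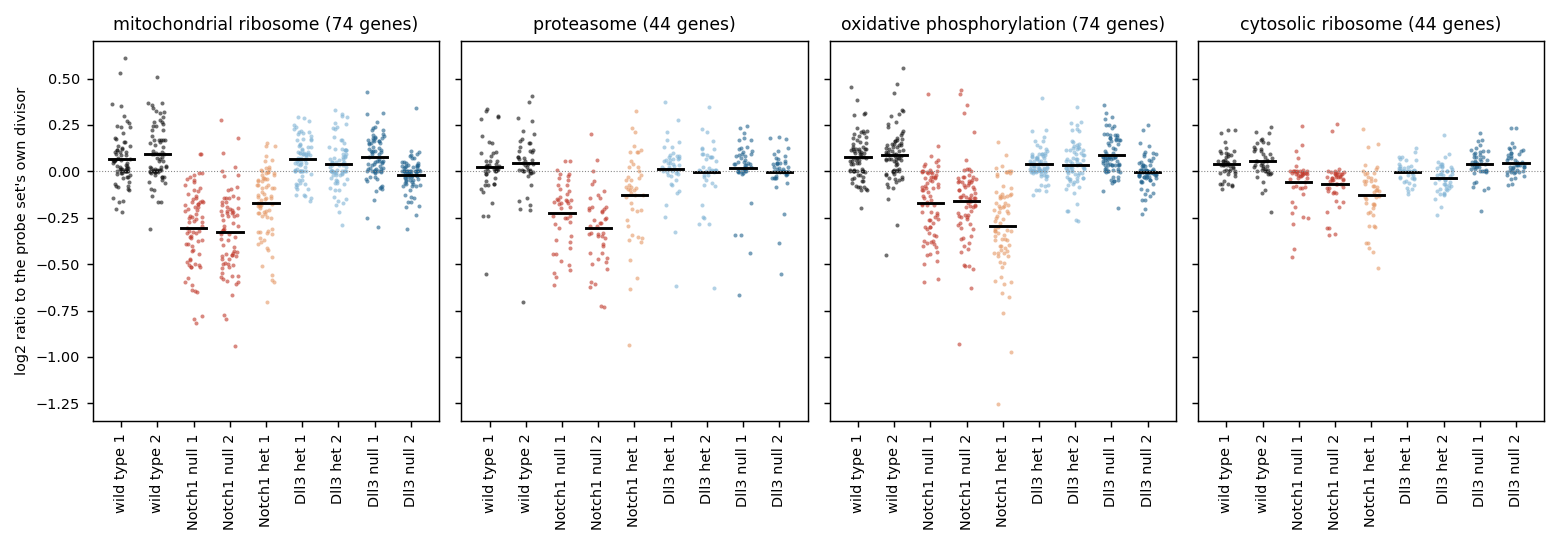
Log2 ratio of each measured gene (points) and the list mean (bar) on the 9 arrays for 4 large complexes. Both Notch1 null arrays (red) lie below wild type (black) for the mitochondrial ribosome and the proteasome. By list mean the heterozygous array is lowest for oxidative phosphorylation and for the cytosolic ribosome. Notch1 null and wild type differ least for the cytosolic ribosome.

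The proteasome, which degrades tagged proteins, had 15 of 44 genes (34.1%) lower and 0 higher, with a median of -0.30 and 42 of 44 below 0. The lower genes were 7 of 10 beta subunits of the core, 5 of 6 ATPases of the cap, 2 of 14 non-ATPase subunits and the activator gene Psme3, with 0 of 7 alpha subunits. Psmc4 read 0.809 and 0.736 against 1.23 and 1.32, and Psmb6 0.674 and 0.695 against 1 and 1.11. The 15 became 7, 3, 6 and 4, and 6 after quantile normalization. Psmb3, Psmb6 and Psmc4 stood in each left-out fit as averaged genes, but all 5 of their probe sets ended without Notch1 null 2 (adjusted p 0.0608 to 0.102) and wild type 2 (0.051 to 0.0883).

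Ribosome biogenesis and translation factors had 13 of 57 (22.8%) lower and 1 higher, with a median of -0.17. Polr1e and Ubtf serve transcription of ribosomal RNA, and Bop1 its processing. Bop1 read 0.612 and 0.598 against 1.01 and 1.11, and Ubtf 0.612 and 0.607 against 0.909 and 1. Eef1d, an elongation factor, was lower by -0.71 ± 0.10. The 13 became 8, 5, 7 and 5, and these 4 genes stood in each, Ubtf and Eef1d only as averaged genes. For the cytosolic ribosome itself the count was 1 of 44 (2.27%) lower, Rps27l, with a median of -0.10 and 38 of 44 below 0, so single genes seldom passed. Its list mean was lowest in the heterozygous array (-0.13), with -0.06 and -0.07 in Notch1 null and 0.04 and 0.05 in wild type.

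Targets of the amino acid stress pathway that acts through ATF4 were higher at 10 of 42 (23.8%) and lower at 1, with a median of 0.13. Stc2 and Vldlr, among the 10, also stand in the hypoxia list. Chac1, which degrades glutathione, read 2.92 and 4.15 against 0.99 and 1.11 (3.32-fold, log2 1.73 ± 0.17), and Slc7a3, a transporter of cationic amino acids, 1.57 and 2.87 against 0.929 and 0.895. The mean of this list was 0.12 in Notch1 null 1 and 0.37 in Notch1 null 2, with the other 7 arrays between -0.09 and -0.01. The 10 became 13 without Notch1 null 1 but 4, 4 and 3 without Notch1 null 2, wild type 1 and wild type 2, with Chac1, Stc2 and Vldlr in each.

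The unfolded protein and heat shock list went the other way, with 12 of 45 (26.7%) lower, 2 higher and a median of -0.15. Creld2 and Dnajb11, of the endoplasmic reticulum, read 0.677 and 0.672 against 1.05 and 1.18, and 0.565 and 0.629 against 1.01 and 1.02. The cytosolic chaperone partners Ahsa1 (0.694 and 0.625 against 1.17 and 1.02) and Hsph1 (log2 -1.05 ± 0.20 and -0.77 ± 0.17 at its probe sets) were lower too. The 12 became 7, 4, 4 and 4, and 4 after quantile normalization, with Creld2, Dnajb11 and Ahsa1 in each left-out fit, only as averaged genes.

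Of 34 genes of metal and oxidative stress 3 were higher and 5 lower. The metallothionein gene Mt2 read 2.14 and 3.11 against 0.89 and 1.08 (2.63-fold). The peroxiredoxin genes Prdx2 and Prdx3 were lower (-0.57 and -0.49), and so was the glutaredoxin gene Glrx (-0.48). Prdx2 passed at 1 of its 2 probe sets. The calls of Mt2, Prdx3 and Glrx, averaged by gene, ended without Notch1 null 2 (adjusted p = 0.0519, 0.0513 and 0.128), and Prdx2 stood in each left-out fit. Immediate early genes had 4 of 32 higher and 1 lower. Ier3 read 5.22 and 7.98 against 0.913 and 1.03, Egr1 2.07 and 1.77 against 0.948 and 1, and Maff 1.42 and 1.72 against 1.03 and 0.808. Plk3, a stress kinase, was the lower one (0.713 and 0.745 against 2.05 and 1.49). Ier3 and Plk3 stood in each left-out fit, and the calls of Egr1 and Maff ended without Notch1 null 2 (0.0571 and 0.0684).

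Cell cycle genes were lower at 8 of 58 (13.8%) and higher at 3, and genes of DNA replication and repair at 9 of 54 (16.7%) and 1. Ccne1, cyclin E1, which starts S phase, read 0.569 and 0.518 against 1.20 and 1.34 (2.33-fold lower), below all 7 others. Cdkn1c, an imprinted inhibitor of the cycle, read 0.724 and 0.829 against 1.19 and 1.36, and Ccng2, a cyclin of arrest that the hypoxia list also holds, 1.42 and 1.73 against 0.939 and 0.849. Fen1, Mcm5, Rrm2 and Uhrf1 of DNA synthesis were lower by -0.65, -0.48, -0.50 and -0.58. The 9 became 6, 0, 1 and 1 and the 8 became 5, 2, 3 and 3 in the left-out fits. Ccne1, Cdkn1c and Ccng2 stood in each, the last pair only as averaged genes.

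Wnt had 3 of 54 higher and 4 lower, led by Porcn, the acyltransferase of Wnt ligands (1.41 and 1.47 against 0.929 and 1). BMP and TGF-beta had 4 of 51 higher and 3 lower, FGF 4 of 33 and 4, and hedgehog 2 of 23 and 4. In the left-out fits, in the order given above, the 3 higher Wnt genes became 3, 1, 1 and 1, the 4 BMP genes 1, 0, 0 and 1 and the 4 FGF genes 3, 1, 1 and 0. The lower genes became 2, 1, 1 and 1 for Wnt, 1, 1, 1 and 2 for BMP, 0, 0, 1 and 1 for FGF (0 after quantile normalization) and 4, 2, 3 and 2 for hedgehog, and the 2 higher hedgehog genes 1, 0, 1 and 0. Of 19 hedgehog genes outside the hypoxia and neural lists 2 were lower. The lower hedgehog genes included Pax1 and Nkx2-2, of ventral neural tube (0.626 and 0.624 against 1 and 1.03). Imprinted and growth factor genes had 7 of 45 (15.6%) higher and 2 lower. Igfbp5, a binding protein of insulin-like growth factors, read 1.23 and 1.32 against 0.809 and 0.823, and the imprinted gene Nnat 0.667 and 0.735 against 1.40 and 1.09. The 7 became 5, 1, 3 and 3, and Porcn, Igfbp5 and Nnat stood in each as averaged genes. As probe sets, Porcn ended without Notch1 null 2 (adjusted p = 0.084), wild type 1 (0.0692) and wild type 2 (0.0529), and Nnat without Notch1 null 1 (0.0598), Notch1 null 2 (0.0575) and wild type 1 (0.0538).

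The p53 and apoptosis list had 3 of 37 higher and 4 lower, cholesterol and fatty acid synthesis 1 of 35 and 0, splicing factors 2 of 79 and 8, and chromatin regulators 4 of 78 and 6. In the left-out fits the lower genes became 3, 0, 0 and 1 for p53, 5, 1, 1 and 0 for splicing (1 after quantile normalization) and 3, 1, 1 and 1 for chromatin. The higher genes became 2, 0, 2 and 1 for p53, 0 in each for cholesterol, 0, 0, 1 and 0 for splicing and 2, 1, 1 and 1 for chromatin. Nipbl, the cohesin loader, read 1.31 and 1.34 against 0.921 and 0.782, and stood in each left-out fit only as an averaged gene. Rbbp4, a histone chaperone of several complexes, was lower by -0.86 ± 0.14, a call that ended without Notch1 null 2 (adjusted p = 0.0571).

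Marker lists of tissues that dissection could leave with the embryo gave mixed values. Yolk sac and liver endoderm had 9 of 43 (20.9%) higher and 2 lower, but the mean log2 ratio of the list was 0.17 and -0.18 in Notch1 null and -0.15 and 0.17 in wild type, so the groups overlapped and the median was -0.05. The higher genes included Lrp2, the endocytic receptor megalin (1.37 and 1.5 against 0.78 and 0.734, and 1.17 and 1.24 against 0.595 and 0.643), and Sox17, Krt8 and Car4. Serpina1b and Alb, secreted proteins of endoderm, were lower, and both calls ended without Notch1 null 2 (adjusted p = 0.136 and 0.164). The 9 became 3, 2, 4 and 6, with Lrp2 and Sox17 in each. The part of extraembryonic tissue in these results was not tested. Trophoblast and decidua had 0 of 29 called either way by limma, and 2 at an unadjusted p under 0.05. Primitive red cells and heme had 1 of 42 higher, Tfrc, and 2 lower, Bpgm and Slc25a38, all 3 ending without Notch1 null 2 (adjusted p = 0.225, 0.106 and 0.121), with list means of -0.12 and 0.07 in Notch1 null, 0 and -0.02 in wild type and -0.35 to 0.08 in the Dll3 arrays.

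Some genes gave opposite calls within 1 array set. Luc7l2, a splicing factor, was higher at 2 of 5 probe sets, at 3.48 and 4.46 against 0.949 and 0.837 and at 3.23 and 3.44 against 0.826 and 0.68, lower at another (log2 -0.60 ± 0.15), and did not pass at 2. Smc4, a condensin subunit, was higher at 2 (0.98 and 0.55) and lower at 1 (-1.17 ± 0.23), where wild type (2.00 and 1.91) stood above all 7 others. Mdp1 (1.19 and -0.39), Ap3s2 (0.53 and -0.69) and Thoc3 (0.57 and -0.44) each had 1 passing either way. Which transcripts these probe sets read was not worked out. All opposite calls of these 5 genes ended without at least 2 of the 4 arrays.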

How the data were processed

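The deposited table holds linear ratios per probe set for 9 arrays. RMA was used, per the submitters' processing notes (no version given). The deposited ratios have a median of 1 over the 9 arrays for most probe sets, and 2811 of those tested have a median further below 1 than a rounding tolerance of 0.002. Each probe set was therefore read as divided by its own number, a step not given in the sources used here. This leaves fold changes intact but removes the level, so no filter on low values could be applied and 0 columns were left unused.

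Ratios were taken to log2 with no pseudocount. After 64 of 22690 probe sets (controls) were set aside, 22626 went into limma (version 3.58.1, R 4.3.3; lmFit and eBayes) as a fit of 5 genotype means to the 9 arrays, 4 residual and 5.42 prior degrees of freedom, and p-values were adjusted over all of them by Benjamini-Hochberg (threshold 0.05). Of these, 20380 carry 1 symbol of the platform annotation. Their probe sets were averaged over 12393 genes and fitted likewise for 39 lists (1649 of 1900 listed genes measured; 10 entries matched by a synonym). Only 2 arrays per group limit precision. On simulated data of 22626 probe sets, the fit called 12.9%, 74.6% and 95.5% of changes of 0.5, 1 and 2 on the log2 scale. A mean of 4 unchanged probe sets were called per run. The simulated data held far fewer changed probe sets than were called here, which makes the adjusted threshold stricter. These shares are therefore not those of the real comparison.

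Named genes were those picked by a rule. It took the 12 highest and 12 lowest with 2 or more concordant probe sets and 6 and 6 with 1 probe set. Hypoxia, neural and sex-linked lists were left out of both. Added to these were up to 4 of lowest p per list, the Notch genes and up to 5 with opposite calls. Last came the 5 highest and 5 lowest probe sets that stood without each array. Some genes so picked, Akap9 among them, are counted as named below but not described above. Other list members named for their subunit, their place in a count or for standing in each left-out fit were chosen after their values were seen. The members and lists were chosen with earlier results of these data known. Replicate numbers were not taken to pair samples. Promoters came from RefSeq, GRCm38.p6.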

Additional observations from a re-analysis of the deposited data

How the results depend on the processing

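The counts of 783 higher and 1356 lower probe sets and 276 genes with concordant probe sets fell under several alternatives. At an unchanged threshold they fell furthest with the dap level in the fit and when an array of either group was left out. A fit without such an array has less to estimate from, so some loss of calls is built in. Leaving out each array in turn, Dll3 arrays included, gave 124 to 796 higher, 182 to 1324 lower and 26 to 265 genes. Quantile normalization gave 417, 552 and 105, and the dap level as a covariate 0, 0 and 0, where the added term and the larger SE accompany the loss (2453 at an unadjusted p under 0.05 by limma). Without probe sets whose names end in x_at or s_at, which leaves fewer to test, the genes numbered 172. Stricter calls gave 207, 304 and 45 (adjusted p under 0.01) and 120, 90 and 24 (a difference of at least 1 as well). Apart from the stricter calls and the built-in loss with fewer arrays, the cause of these shifts was not tested.

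The replicate number as a block gave 696, 1178 and 242. Same-numbered arrays of Notch1 null and wild type deviated from their group means with a correlation of -0.041. Over the other pairs of groups it ranged from -0.098 (Notch1 null and Dll3 null) to 0.159 (wild type and Dll3 heterozygous). They were not taken as pairs, and a shared batch was not tested. Of the 238 named probe sets that passed, 0 changed direction under any alternative, and 95 were lost without Notch1 null 1, 158 without Notch1 null 2, 124 without wild type 1, 144 without wild type 2, 13 under the block, 68 under quantile normalization, 22 with Eif2s3y as a covariate, 28 with only the 4 compared arrays and 238 with the dap level. These probe sets had been picked for passing, so a change of direction was unlikely beforehand. With 2 arrays per group, changes of 0.5 on the log2 scale can be missed. In simulated data 12.9% of them were called, but those data held far fewer changed probe sets than were called here. That share is therefore not the share found in this comparison.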

Other observations

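Genes beside Notch1 on chromosome 2 were looked at after the values were seen. Of the 20 measured genes nearest in RefSeq order (10 on each side), 8 were called by limma, 1 higher (Sec16a, next to Notch1) and 7 lower, against 12.1% of all genes. Dnlz, a chaperone partner of mitochondria, read 0.616 and 0.551 in Notch1 null against 1.07 and 1.05 in wild type (log2 -0.86 ± 0.10), and the heterozygous array read 1.11. Gpsm1, a regulator of G proteins, read 0.81 and 0.786 against 1.16 and 1.15. Ubac1, Tmem250-ps, Entr1, Dipk1b and Med22 were lower by -0.45, -0.55, -0.36, -0.46 and -0.38. Among the nearest 50 and 100 genes 10 and 20 were called, while whole chromosomes ranged from 8.64% to 14.8%, with chromosome 2 at 12.9%. Egfl7, the endothelial gene on the other side of Notch1, had a difference of 0.04 ± 0.10.

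With the dap control level as a covariate, 24 averaged genes passed limma although 0 probe sets did. Outside the hypoxia and neural lists they included Plekha2 (log2 1.40 ± 0.18), A2m (1.37 ± 0.16), Fez1 (-1.54 ± 0.19), Crym, a thyroid hormone binding protein (-1.62 ± 0.17), Aldh1a2 (-1.36 ± 0.18), Barx1 (-1.49 ± 0.20) and Pax1 (-1.27 ± 0.17). Crym was chosen after its values were seen.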
